A study of Homo sapiens with 5 samples.

Results

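The thioredoxin and peroxiredoxin system was represented by 10 genes, TXN, TXNRD1, TXNRD2, SRXN1, PRDX1, PRDX2, PRDX3, PRDX5, PRDX6 and TXNIP, of the 19689 genes that have a protein-coding transcript in GENCODE release 44. The genes were taken by name for their role, and every peak over the gene body or up to 10 kb to each side was collected. Chromatin binding was measured by CUT&Tag, in which an antibody bound to its target in permeabilised cells draws the transposase Tn5 to that place and the enzyme tags the nearby DNA for sequencing. The cells were SNU638, an established line from a human gastric cancer, with no treatment or genetic change given in the labels. The antibodies anti-BRG1, anti-ACTL6A and anti-NRF2 had 1 library each, and 2 further libraries were made with IgG, an antibody with no target of its own that gives the background, called IgG 1 and IgG 2 here. ACTL6A and BRG1 are subunits of the BAF chromatin remodelling complex, BRG1 being its ATPase, and NRF2 is a transcription factor of the response to oxidants and electrophiles. With 1 library for each antibody there was no replicate spread, so presence, position and rank of peaks are described and no test between antibodies was made.

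Thioredoxins and peroxiredoxins pass electrons from NADPH to peroxides. A peroxiredoxin reduces a peroxide with a reactive cysteine, thioredoxin reduces most peroxiredoxins, and thioredoxin reductase restores thioredoxin at the expense of NADPH. NRF2 is known to bind antioxidant response elements (AREs) together with small MAF proteins, and several genes of this system are among its textbook targets.

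The lists held 23917 peaks for ACTL6A, 48793 for BRG1 and 9045 for NRF2, against 11 for IgG 1 and 1746 for IgG 2. Each peak has a fold enrichment, a p-value and a q-value from the peak caller. The fragments at the summit, the base with the most fragments, and the number the caller expected there were recovered from the fold and the p-value. The median peak had 6 fragments for ACTL6A, 10 for BRG1 and 17 for NRF2. Folds and q-values depend on the depth of each library, so peaks were compared between lists by their rank, 0% being the top of a list and 100% its end. A rank in turn depends on the length of its list, so equal ranks in different lists need not mark equal enrichment. Of the markers of an epithelial gastric line, EPCAM, KRT8, KRT18 and CDH1 had a BRG1 peak at a transcriptional start site (TSS). EPCAM, KRT8 and KRT18 but not CDH1 also had an ACTL6A peak there, and none had an NRF2 peak. The leukocyte gene PTPRC and the endothelial gene PECAM1 had no peak, and the fibroblast gene COL1A1 had peaks of ACTL6A and BRG1.

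At a TSS, taken as no more than 1 kb from the first base of any protein-coding transcript, BRG1 peaks lay at 10 of the 10 genes, ACTL6A peaks at 7 and NRF2 peaks at 7. The same held for 63.5% of all genes for BRG1, 38.5% for ACTL6A and 28.1% for NRF2. TXN, TXNRD1, PRDX1, PRDX3, PRDX6 and TXNIP had peaks of all 3 antibodies, which makes 6 of 10 genes against 22.1% of all genes. PRDX2 had ACTL6A and BRG1 without NRF2, as did 14.7% of all genes. SRXN1 had BRG1 and NRF2 without ACTL6A, a combination found at 5.60% of all genes. TXNRD2 and PRDX5 had BRG1 alone, as did 21.1% of all genes. No peak of the 3 antibodies lay at a TSS of 34.4% of all genes. The shares over all genes include these, while all 10 genes had BRG1. No IgG peak lay at a TSS of the 10 genes, and 0% of all genes had an IgG 1 peak there and 0.152% an IgG 2 peak. Since the 10 genes were chosen by name with earlier results known, the counts describe them, and peaks at 10 genes are not replicates of a measurement.

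**Figure D1:**
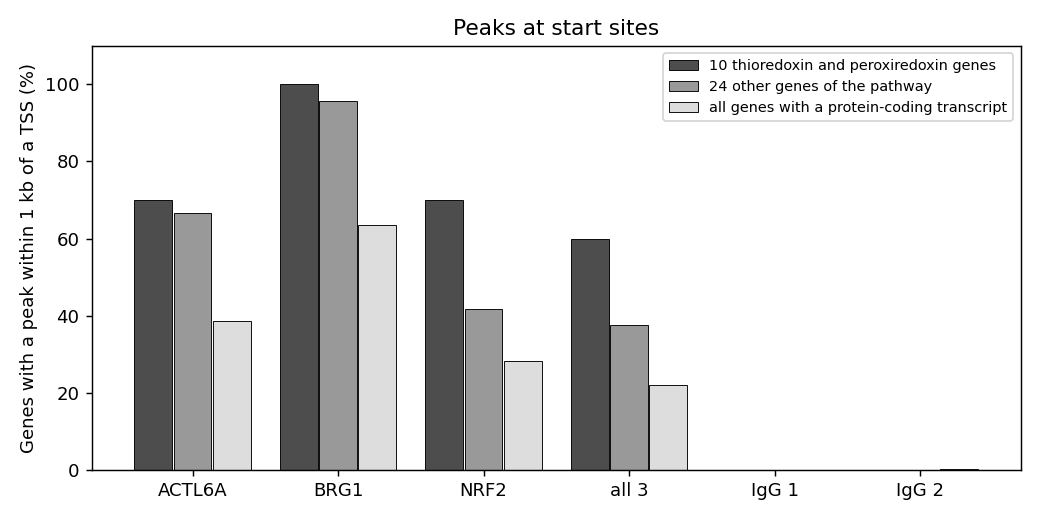
Share of genes with a peak within 1 kb of a TSS (percent, bars from 0), for each antibody, for all 3 antibodies together and for the 2 IgG libraries, in the 10 thioredoxin and peroxiredoxin genes, 24 other genes of the pathway and all 19689 genes with a protein-coding transcript. The 10 genes stand above all genes for each antibody (70.0% against 28.1% for NRF2), and the 24 other genes lie closer to all genes for NRF2 (41.7%) than for BRG1 (95.8%).

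Over the genes with their flanks, 9 of 10 had an ACTL6A peak (66.9% of all genes), 10 of 10 a BRG1 peak (82.7%) and 9 of 10 an NRF2 peak (41.1%). IgG peaks were at 0 of the 10, against 0.0356% of all genes for IgG 1 and 1.67% for IgG 2. The peaks numbered 13 for ACTL6A, 46 for BRG1 and 10 for NRF2. That was a mean of 4.60 BRG1 peaks per gene against 2.77 over all genes, 1.30 against 1.23 for ACTL6A and 1.00 against 0.528 for NRF2. The median was 4.00 against 2.00 for BRG1, 1.00 against 1.00 for ACTL6A and 1.00 against 0 for NRF2. The searched stretch had a median of 31290 bp against 47330 bp. The longest stretches, TXNRD1 with 154529 bp and TXNRD2 with 86304 bp, held 9 and 11 of the BRG1 peaks. Of all peaks over the 10 genes with their flanks, 7 for ACTL6A, 15 for BRG1 and 7 for NRF2 were at the gene's own TSS. Among genes with a peak at a TSS, the median rank of the highest such peak was 9.10% in the BRG1 list for the 10 genes and 18.8% for all genes. For NRF2 it was 29.4% against 41.8%, and for ACTL6A 17.6% against 20.7%.

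**Figure D2:**
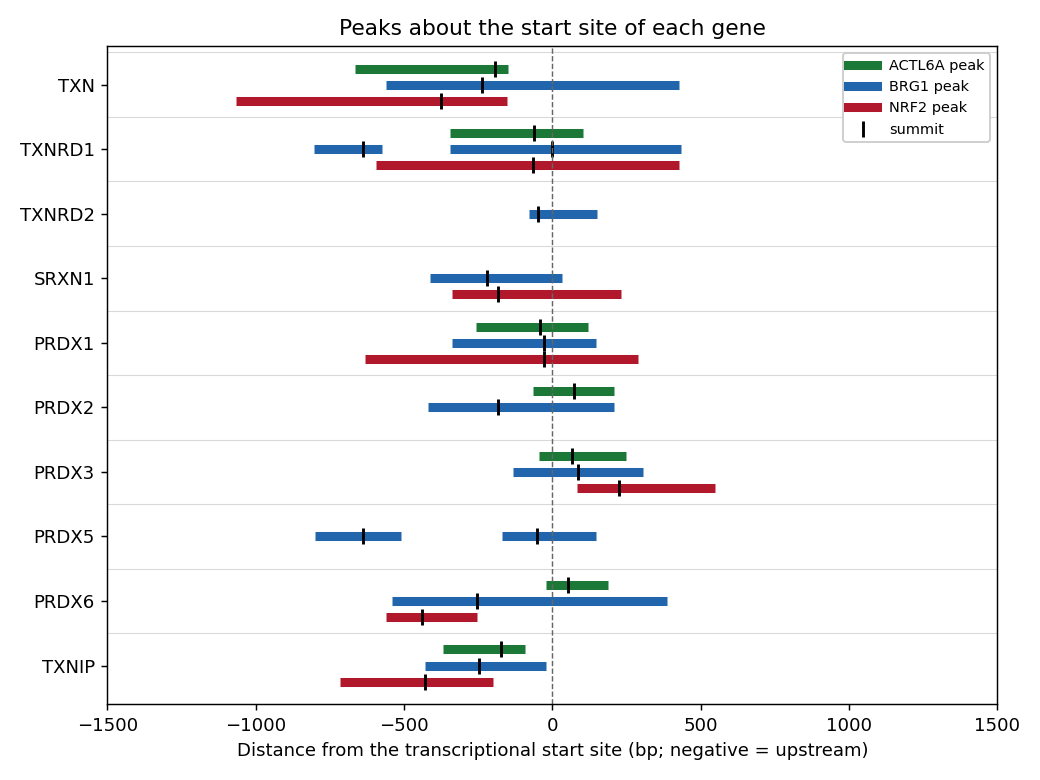
Peaks of ACTL6A, BRG1 and NRF2 as bars and their summits as black ticks, by distance in bp from a TSS of each gene, upstream to the left, for 1500 bp to each side. The TSS shown is the annotated TSS nearest to the summit of the gene's highest BRG1 peak at a TSS; BRG1 has a bar at every gene, ACTL6A is missing at TXNRD2, SRXN1 and PRDX5, and NRF2 at TXNRD2, PRDX2 and PRDX5.

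TXN (ENSG00000136810), the cytosolic thioredoxin, lies on the minus strand of chromosome 9, at chr9:110243810-110256507. All 3 antibodies had a peak just upstream of it, and each ranked in the highest 12.9% of its list. The NRF2 peak at chr9:110256661-110257572 was 7.36-fold enriched with a -log10 q of 24.4. Its summit had 49 fragments (95% Poisson interval 36.3 to 64.8) where 5.80 were expected, and it ranked 518 of 9045 peaks (5.73%). The BRG1 peak at chr9:110256079-110257067 had 47 fragments (34.5 to 62.5) against 1.96 expected, a fold of 16.2 and a -log10 q of 43.6, and ranked 1446 of 48793 (2.96%). The ACTL6A peak at chr9:110256655-110257173 had 13 fragments (6.92 to 22.2) against 0.748 expected, a fold of 8.01 and a -log10 q of 9.09, and ranked 3095 of 23917 (12.9%). From the outer TSS the ACTL6A summit was 194 bp upstream, the BRG1 summit 238 bp and the NRF2 summit 376 bp, and from the inner TSS 235, 279 and 417 bp. The NRF2 and ACTL6A peaks shared 513 bp, which was 98.8% of the ACTL6A peak, and their summits were 182 bp apart.

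The core of the ARE, written TGACNNNGC and searched on both strands, occurred once in the TXN peaks, 577 bp upstream of the TSS and 201 bp from the NRF2 summit. It lay inside the NRF2 and ACTL6A peaks and outside the BRG1 peak. The stretch from 600 to 301 bp upstream of the outer TSS, at chr9:110256808-110257107 and read on the strand of the gene, is shown because it holds the core and the NRF2 summit. The core is in capitals and reads here on the opposite strand.
TXN upstream: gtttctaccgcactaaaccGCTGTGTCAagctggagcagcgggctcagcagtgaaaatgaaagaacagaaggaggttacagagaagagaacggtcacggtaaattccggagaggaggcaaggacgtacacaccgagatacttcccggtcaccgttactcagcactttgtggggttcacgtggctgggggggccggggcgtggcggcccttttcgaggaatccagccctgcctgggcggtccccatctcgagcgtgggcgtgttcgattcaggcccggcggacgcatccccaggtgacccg
This stretch overlapped 0 annotated exons and was 60.7% G and C.

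TXNRD1 (ENSG00000198431), the cytosolic thioredoxin reductase, a selenoprotein, lies on the plus strand at chr12:104215779-104350307 and has 14 annotated TSSs. It had the highest NRF2 peak of the 10 genes. That peak, at chr12:104286285-104287308, had 73 fragments at its summit (57.2 to 91.8) against 7.93 expected, a fold of 8.29 and a -log10 q of 39.7, and ranked 262 of 9045 (2.90%). With the NRF2 peaks that overlap an IgG peak left out of the ranking, it was peak 48 (0.598%), while TXN moved to 199 (2.48%) and PRDX1 to 507 (6.31%). Most NRF2 peaks ranked above that of TXNRD1 thus overlapped an IgG peak. SRXN1 was then at 24.5%, PRDX3 at 61.9%, TXNIP at 67.8% and PRDX6 at 94.1%. None of the peaks at the 10 genes overlapped an IgG peak. The ACTL6A peak at chr12:104286536-104286983 had 12 fragments (6.20 to 21.0) against 0.741 expected, a fold of 7.47 and a -log10 q of 7.97, at rank 3703 (15.5%). Of 2 BRG1 peaks, that at chr12:104286536-104287316 had 42 fragments (30.3 to 56.8) against 3.25, a fold of 10.1 and a -log10 q of 28.3, at rank 3714 (7.61%). The other, at chr12:104286077-104286305, had 26 fragments (17.0 to 38.1) against 3.20, a fold of 6.42 and a -log10 q of 12.5, at rank 11482 (23.5%).

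These peaks were not at the TSS of the MANE Select transcript, the reference transcript of the gene. That TSS, the first base of the gene, lay 71037 bp upstream of the NRF2 summit and had no peak within 1 kb. The peaks were at a group of downstream TSSs, and 12 of the 14 TSSs had a peak of each antibody within 1 kb. The NRF2 summit was 65 bp upstream of the nearest of these TSSs, the ACTL6A summit 61 bp and that of the higher BRG1 peak 3 bp. To those 12 TSSs the NRF2 summit ranged from 814 bp downstream to 552 bp upstream, the ACTL6A summit from 818 bp downstream to 548 bp upstream, and the BRG1 summit from 876 bp downstream to 490 bp upstream. The lower BRG1 summit was 242 bp downstream of the first of them and 1124 bp upstream of the last. The ACTL6A and NRF2 summits were 4 bp apart, and the ACTL6A peak lay wholly inside the NRF2 peak and inside the higher BRG1 peak (100% of its 448 bp in each). The NRF2, ACTL6A and higher BRG1 summits lay in the 5′ untranslated exon of a downstream transcript. With only MANE Select TSSs counted, TXNRD1 dropped out for each antibody. ACTL6A was then at 6 of the 10 genes (34.7% of the 19061 genes with such a TSS), BRG1 at 9 (60.0%), NRF2 at 6 (26.1%) and all 3 at 5 (20.3%).

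An ARE core lay in the peaks of all 3 antibodies at TXNRD1, 56 bp from the BRG1 summit, 114 bp from the ACTL6A summit and 118 bp from the NRF2 summit. The gene had 64 cores in its region and 61 of them lay in no peak. Another 2 were in BRG1 peaks of introns, 1 bp and 26 bp from the summits. These 3 sites are shown on the minus strand because they are the cores under peaks of the reductase, with the core in capitals and 10 bases to each side.
TXNRD1 TSS, chr12:104286920-104286948: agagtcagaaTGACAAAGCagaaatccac
TXNRD1 intron, chr12:104219504-104219532: ttacacatcaTGACACTGCattttctacg
TXNRD1 intron, chr12:104281032-104281060: atggagaggtTGACTAAGCagttggatat
Of these sites, the TSS site and the first intronic site have the core preceded by A or G. The longer form of the core, preceded by A or G, is held by 11.9% of all NRF2 peaks.

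Away from its TSSs, TXNRD1 had 2 ACTL6A and 7 BRG1 peaks. An intronic pair near the start of the gene was shared, ACTL6A at chr12:104219987-104220178 with 7 fragments (2.81 to 14.4) and BRG1 at chr12:104220038-104220290 with 32 fragments (21.9 to 45.2), the latter at rank 8.87% of its list. Their summits were 4281 and 4391 bp downstream of the first TSS. The BRG1 peak at 49.0% of its list was at the TSS of EID3, a gene nested in TXNRD1.

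TXNRD2 (ENSG00000184470), the mitochondrial thioredoxin reductase, at chr22:19875517-19941820 on the minus strand, had its nearest NRF2 peak 79326 bp away and no ACTL6A peak at a TSS. It had 11 BRG1 peaks, more than any other of the 10 genes, and 4 of them were at TSSs. The highest of the 4, at chr22:19881217-19881449, lay at a downstream TSS near the 3′ end of the gene and had 25 fragments (16.2 to 36.9) against 2.71 expected, a fold of 7.0, a -log10 q of 13.2 and rank 10829 (22.2%). Its summit was 47 bp upstream of that TSS and 60402 bp downstream of the MANE Select TSS. At the MANE Select TSS itself the BRG1 peak at chr22:19941609-19941875 had 13 fragments (6.92 to 22.2) against 1.13, a fold of 6.56, a -log10 q of 7.67 and rank 17829 (36.5%), with the summit 13 bp upstream. A peak at chr22:19940994-19941183 had 9 fragments (4.12 to 17.1) against 1.11, a fold of 4.73, a -log10 q of 3.85 and rank 28950 (59.3%), and lay 654 bp inside TXNRD2. The last, at chr22:19933502-19933692, had 6 fragments (2.20 to 13.1) against 0.616, a fold of 4.33, a -log10 q of 2.84 and rank 35736 (73.2%), 22 bp downstream of an internal TSS. The single ACTL6A peak, at chr22:19909734-19909960, was intronic, had 7 fragments (2.81 to 14.4) and ranked at 49.2%, and shared 54 bp with a BRG1 peak of 10 fragments (4.80 to 18.4). Of 36 ARE cores in the region, 0 lay in a peak.

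SRXN1 (ENSG00000271303), sulfiredoxin, which repairs hyperoxidised peroxiredoxins, at chr20:646615-653200 on the minus strand, has 1 TSS. It had high BRG1 and moderate NRF2 signal and no ACTL6A peak. The BRG1 peak at chr20:653167-653613 had 46 fragments (33.7 to 61.4) against 2.18 expected, a fold of 14.8, a -log10 q of 40.2 and rank 1786 (3.66%), with its summit 222 bp upstream. The NRF2 peak at chr20:652969-653537 had 27 fragments (17.8 to 39.3) against 5.24, a fold of 4.49, a -log10 q of 7.87 and rank 2660 (29.4%), with its summit 184 bp upstream. The summits were 38 bp apart and the peaks shared 371 bp. The nearest ACTL6A peak was 115478 bp from the gene, the farthest of any of the 10 genes. Of all 1596 BRG1 peaks at a TSS with 46 fragments or more, 83.0% overlapped an ACTL6A peak and 72.1% an NRF2 peak. Of the 1777 with 0.8 to 1.25 times as many fragments as SRXN1, 72.8% overlapped an ACTL6A peak and 63.1% an NRF2 peak. An absence from the ACTL6A list means that no peak passed the caller's threshold at this depth, not that ACTL6A was absent.

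The SRXN1 NRF2 peak held no ARE core but 4 matches to the looser TGANNNNGC, which 58.4% of all NRF2 peaks hold. One of them lay 268 bp upstream of the TSS, 46 bp from the BRG1 summit and 84 bp from the NRF2 summit. Its letters include TGAGTCA, a form of the AP-1 motif, so the 2 motifs overlap there. The 282 bases upstream of the TSS, chr20:653201-653482 on the strand of the gene, are shown because both summits and this match lie in them. The match is in capitals.
SRXN1 upstream: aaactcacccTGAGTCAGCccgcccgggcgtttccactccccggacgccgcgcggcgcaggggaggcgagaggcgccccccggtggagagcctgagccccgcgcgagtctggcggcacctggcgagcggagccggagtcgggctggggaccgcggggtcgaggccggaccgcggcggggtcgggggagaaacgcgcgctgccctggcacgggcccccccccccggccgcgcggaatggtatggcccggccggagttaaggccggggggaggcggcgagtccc
The stretch was 78.7% G and C and overlapped 0 annotated exons. A further 4 BRG1 peaks lay away from the TSS, with 6 to 15 fragments, and 2 of them, downstream of the gene, held an ARE core 58 and 119 bp from the summit.

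PRDX1 (ENSG00000117450), a cytosolic peroxiredoxin, lies on the minus strand at chr1:45510914-45542732 and has 5 TSSs. Summits of all 3 antibodies fell within 13 bp of each other at its main group of TSSs. The NRF2 peak at chr1:45521649-45522570 had 35 fragments (24.4 to 48.7) against 4.37 expected, a fold of 6.70, a -log10 q of 16.2 and rank 946 (10.5%). The BRG1 peak at chr1:45521791-45522278 had 25 fragments (16.2 to 36.9) against 1.64, a fold of 9.86, a -log10 q of 18.2 and rank 7329 (15.0%). The ACTL6A peak at chr1:45521817-45522196 had 6 fragments (2.20 to 13.1) against 0.442, a fold of 4.86, a -log10 q of 3.12 and rank 11555 (48.3%). From the nearest TSS the NRF2 summit was 29 bp upstream, the BRG1 summit 30 bp and the ACTL6A summit 42 bp, and from the MANE Select TSS 83, 84 and 96 bp. Distances to the next TSS of the 5 were 113, 114 and 126 bp, and 2 more lay 1067 to 1080 bp and 20752 to 20765 bp upstream of the summits. The NRF2 and BRG1 summits were 1 bp apart. The BRG1 and ACTL6A peaks lay wholly inside the NRF2 peak. A single ARE core was common to the 3 peaks, 83 bp upstream of the nearest TSS, 41 bp from the ACTL6A summit, 53 bp from the BRG1 summit and 54 bp from the NRF2 summit. In the flank of PRDX1, 28964 to 29045 bp upstream of its MANE Select TSS, BRG1 (36 fragments, 25.2 to 49.8, rank 4.51%) and ACTL6A (9 fragments, 4.12 to 17.1, rank 18.2%) shared a peak at the TSS of AKR1A1, an aldehyde reductase gene. Both antibodies ranked higher there than at PRDX1 itself, and NRF2 had no peak there. A BRG1 peak downstream of PRDX1 at rank 57.0% held another ARE core.

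PRDX2 (ENSG00000167815), another cytosolic peroxiredoxin, is a short gene at chr19:12796820-12801800 on the minus strand. ACTL6A and BRG1 had peaks that begin at the same base of its TSS region, and NRF2 had none. The ACTL6A peak at chr19:12801591-12801865 had 6 fragments (2.20 to 13.1) against 0.442 expected, a fold of 4.86 and a -log10 q of 3.12, tied with PRDX1 at rank 11555 (48.3%). Its summit was 60 and 73 bp downstream of the 2 TSSs. The BRG1 peak at chr19:12801591-12802219 had 24 fragments (15.4 to 35.7) against 2.76, a fold of 6.65, a -log10 q of 12.1 and rank 11870 (24.3%), with its summit 195 and 182 bp upstream of the same TSSs and 87 bp from the TSS of THSD8. Of the 5523 BRG1 peaks at a TSS with 24 fragments or more, 56.0% overlapped an NRF2 peak, and of the 3269 with 0.8 to 1.25 times as many fragments 38.7% did. Downstream, 3 BRG1 peaks lay at or near JUNB, which encodes an AP-1 transcription factor. They had 65 fragments (50.2 to 82.8, rank 6.55%), 57 fragments (43.2 to 73.9, rank 9.50%) and 36 fragments (25.2 to 49.8, rank 31.4%), each more than at the TSS of PRDX2, with 8.29 to 8.65 fragments expected. The NRF2 peak in the region, chr19:12793602-12793975 with 26 fragments (17.0 to 38.1) at rank 60.2%, overlapped the third of these by 54 bp and was 2425 bp downstream of the JUNB TSS and 7889 bp downstream of that of PRDX2. It held an ARE core 287 bp from its summit. A BRG1 peak upstream of PRDX2 was at the TSS of RNASEH2A.

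PRDX3 (ENSG00000165672), the mitochondrial peroxiredoxin, at chr10:119167720-119178812 on the minus strand, has 1 TSS, and all 3 antibodies peaked downstream of it. BRG1 at chr10:119178506-119178944 had 32 fragments (21.9 to 45.2) against 1.25 expected, a fold of 14.7, a -log10 q of 30.4 and rank 3250 (6.66%). ACTL6A at chr10:119178564-119178856 had 10 fragments (4.80 to 18.4) against 0.509, a fold of 7.29, a -log10 q of 7.27 and rank 4200 (17.6%). NRF2 at chr10:119178263-119178730 had 14 fragments (7.65 to 23.5) against 2.52, a fold of 4.26, a -log10 q of 3.86 and rank 5887 (65.1%). The ACTL6A and BRG1 summits, 65 and 86 bp downstream of the TSS, were 21 bp apart, and the NRF2 summit was 226 bp downstream. The NRF2 peak held no ARE core. In the downstream flank all 3 antibodies again had overlapping peaks, at the TSS of SFXN4, a mitochondrial protein gene, where NRF2 had 17 fragments (9.90 to 27.2, rank 46.6%), BRG1 18 (10.7 to 28.4, rank 20.3%) and ACTL6A 5 (1.62 to 11.7, rank 69.3%). An ARE core there lay in the BRG1 and ACTL6A peaks and outside the NRF2 peak.

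PRDX5 (ENSG00000126432), a peroxiredoxin found in mitochondria, peroxisomes and cytosol, is at chr11:64318121-64321811 on the plus strand. It had BRG1 alone at its TSSs. The peak at chr11:64317950-64318267 had 48 fragments (35.4 to 63.6) against 6.09 expected, the highest expected number among the highest TSS peaks of the 10 genes in the BRG1 list, and so a fold of 6.91, a -log10 q of 23.2 and rank 5170 (10.6%). Its summit was 51 and 112 bp upstream of the 2 TSSs. A further peak, chr11:64317322-64317610, had 20 fragments (12.2 to 30.9) against 5.93, a fold of 3.03, a -log10 q of 3.30 and rank 33271 (68.2%). It was 640 and 701 bp upstream and only 77 bp from the TSS of the divergent neighbour TRMT112. Of 1435 BRG1 peaks at a TSS with 48 fragments or more, 84.3% overlapped an ACTL6A peak and 73.4% an NRF2 peak, and of the 1610 with 0.8 to 1.25 times as many fragments 73.5% and 63.8% did. A BRG1 peak farther upstream was at a TSS of ESRRA. The ACTL6A peak of the region, chr11:64323231-64323372 with 6 fragments (2.20 to 13.1, rank 72.8%), lay downstream of the gene inside a BRG1 peak of 15 fragments (8.40 to 24.7, rank 56.0%).

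At the outer edge of the PRDX5 region an NRF2 peak, chr11:64331600-64332004, with 18 fragments (10.7 to 28.4) at rank 68.7%, shared 242 bp with a BRG1 peak of 42 fragments (30.3 to 56.8) at rank 12.6%. It was 13557 bp downstream of the first TSS, and the nearest TSS was that of CCDC88B. The ARE core in both peaks lay past the 10 kb limit. It contains TGACTCA, which is the AP-1 motif TGAGTCA of SRXN1 read on the opposite strand. It is shown with the core near JUNB because these were the cores in NRF2 peaks that were not at a TSS of the 10 genes, with 10 bases to each side of the core in capitals.
PRDX5 downstream, minus strand, chr11:64331902-64331930: ctccctgagtTGACTCAGCagctcaccat
PRDX2 downstream, plus strand, chr19:12793610-12793638: ctttccccgcTGACGCAGCggaagcgctg

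PRDX6 (ENSG00000117592), the 1-Cys peroxiredoxin, which also has phospholipase activity, lies at chr1:173477330-173488815 on the plus strand and had the highest BRG1 peak of the 10 genes and the lowest NRF2 peak. The BRG1 peak at chr1:173476796-173477722 had 53 fragments (39.7 to 69.3) against 1.92 expected, a fold of 18.5, a -log10 q of 52.4 and rank 900 (1.84%). The NRF2 peak at chr1:173476773-173477080 had 11 fragments (5.49 to 19.7) against 2.46, a fold of 3.46, a -log10 q of 2.02 and rank 8564 of 9045 (94.7%). ACTL6A at chr1:173477313-173477524 had 11 fragments (5.49 to 19.7) against 0.599, a fold of 7.51, a -log10 q of 7.79 and rank 3834 (16.0%). The NRF2 summit was 440 bp upstream of the TSS, the BRG1 summit 255 bp upstream and the ACTL6A summit 54 bp downstream. Here the NRF2 and ACTL6A peaks did not meet, with 232 bp between them, and the ACTL6A peak lay wholly inside the BRG1 peak (212 bp) while the NRF2 peak reached past its upstream end and shared 285 bp with it. Of the 6 genes with all 3 antibodies, PRDX6 was the exception in this, since at TXN, TXNRD1, PRDX1, PRDX3 and TXNIP the NRF2 and ACTL6A peaks overlapped. The NRF2 peak held 2 ARE cores, 334 and 290 bp upstream of the TSS and 106 and 150 bp from the NRF2 summit, and both were also in the BRG1 peak, 79 and 35 bp from its summit. The peaks at PRDX6 were the only ones in its region.

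TXNIP (ENSG00000265972), the arrestin-like protein that binds and inhibits thioredoxin, lies at chr1:145992435-145996579 on the minus strand. All 3 antibodies had a peak upstream of it and nowhere else in its region. BRG1 at chr1:145996602-145997007 had 13 fragments (6.92 to 22.2) against 0.532 expected, a fold of 9.14, a -log10 q of 11.8 and rank 12210 (25.0%), the lowest of the 10 genes in that list. NRF2 at chr1:145996780-145997295 also had 13 fragments (6.92 to 22.2), here against 2.37, a fold of 4.16, a -log10 q of 3.45 and rank 6374 (70.5%). ACTL6A at chr1:145996670-145996947 had 5 fragments (1.62 to 11.7) against 0.182, a fold of 5.08, a -log10 q of 3.98 and rank 8613 (36.0%). From the outer TSS the summits were 173 bp upstream for ACTL6A, 246 bp for BRG1 and 430 bp for NRF2, and from the inner TSS 989, 1062 and 1246 bp. The NRF2 peak held 0 matches even to the looser TGANNNNGC, the only NRF2 peak of the 10 regions for which that was so.

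Ordered by fragments at the highest peak at a TSS, the NRF2 peaks ran from TXNRD1 (73) through TXN (49), PRDX1 (35), SRXN1 (27), PRDX3 (14) and TXNIP (13) to PRDX6 (11). The interval of each gene overlapped that of the next, and the differences between neighbours were not tested. The interval of TXNRD1 lay above those of the 5 genes from PRDX1 on, and those of TXN and PRDX1 above the last 3. For BRG1 the order was PRDX6 (53), PRDX5 (48), TXN (47), SRXN1 (46), TXNRD1 (42), PRDX3 (32), PRDX1 (25), TXNRD2 (25), PRDX2 (24) and TXNIP (13). There, neighbouring intervals again overlapped, PRDX6 lay above the last 4 and each of PRDX5, TXN, SRXN1 and TXNRD1 lay above TXNIP alone. ACTL6A ran from TXN (13) to TXNIP (5), and all 7 intervals overlapped. These orders take no account of the fragments expected at each place. By rank the NRF2 order was the same. In the BRG1 list PRDX5 (rank 5170, 6.09 fragments expected) came after TXN (1446), SRXN1 (1786), PRDX3 (3250) and TXNRD1 (3714). In the ACTL6A list TXNIP (8613) ranked above PRDX1 and PRDX2 (11555 each). The intervals cover counting error in 1 library only, and fragments from amplification are not independent molecules.

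**Figure D3:**
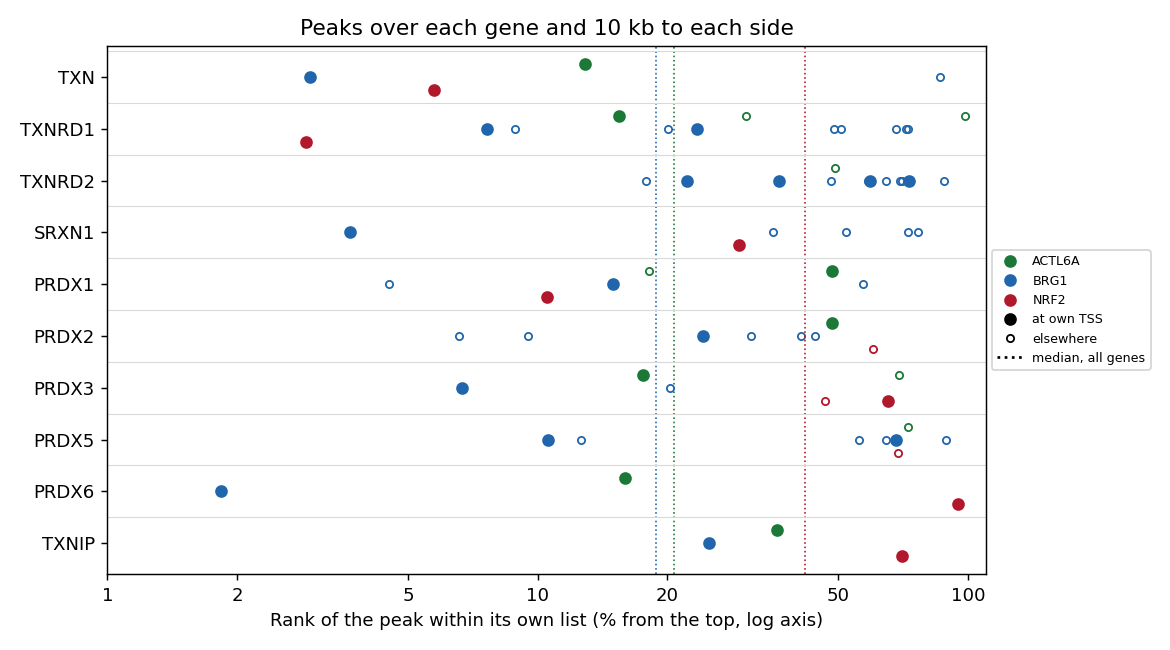
Rank of every peak over each gene and 10 kb to each side, as percent from the top of its own list on a log axis, with filled points for peaks at the gene's own TSS, open points for peaks elsewhere and dotted lines for the median over all genes of the highest TSS peak in that list. The highest TSS peaks of TXN and TXNRD1 lie left of the median of their list for all 3 antibodies, and the NRF2 points of PRDX3, PRDX6 and TXNIP lie right of the NRF2 median of 41.8%.

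Across the regions, 12 of the 13 ACTL6A peaks overlapped a BRG1 peak, against 49.8% of the whole ACTL6A list. Of the 10 NRF2 peaks, 10 overlapped a BRG1 peak (66.2% of the whole NRF2 list) and 6 an ACTL6A peak (49.8%). The remaining ACTL6A peak was an intronic peak of TXNRD1 with 3 fragments (0.619 to 8.77). The whole lists also hold peaks away from any TSS. Here 7 of the 13 ACTL6A and 7 of the 10 NRF2 peaks were at the gene's own TSS. Over all genes, ACTL6A at a TSS mostly came with BRG1. All 3 antibodies were at 22.1% and ACTL6A and BRG1 at 14.7%, against 1.59% for ACTL6A alone and 0.0711% for ACTL6A with NRF2. NRF2 alone was at 0.361%, and BRG1 and NRF2 without ACTL6A at 5.60%. Of the peaks in the 10 regions away from the gene's own TSS, 2 of 6 for ACTL6A, 6 of 31 for BRG1 and 1 of 3 for NRF2 were at the TSS of a neighbour. Introns and exons of the 10 genes held 12 BRG1 and 3 ACTL6A peaks away from a TSS and 0 NRF2 peaks. Matching shares over all genes are not given for these places. The NRF2 list (9045 peaks) is also shorter than those of ACTL6A (23917) and BRG1 (48793).

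The 10 regions held 203 ARE cores, of which 190 lay in no peak. Peaks of BRG1 contained 13, peaks of NRF2 7 and peaks of ACTL6A 4, with the PRDX5 core past the edge counted. An NRF2 peak with a core was found at 6 of the 10 genes, TXN, TXNRD1, PRDX1, PRDX2, PRDX5 and PRDX6, against 12.7% of all genes, and at 4 of these, TXN, TXNRD1, PRDX1 and PRDX6, that peak was at the gene's own TSS. A core occurred in 22.7% of all NRF2 peaks, 16.1% of BRG1 peaks and 11.9% of ACTL6A peaks, and in 13.3% of 35116 RefSeq promoters of 300 bp. The share was larger among wider peaks, from 13.3% of the 2577 NRF2 peaks 300 to 399 bp wide to 33.8% of the 766 peaks 800 to 999 bp wide and 41.8% of the 361 peaks 1000 to 1199 bp wide, and the peaks at TXN, TXNRD1 and PRDX1 were 912, 1024 and 922 bp wide. RefSeq promoters were given for 8 of the 10 genes, all but PRDX1 and PRDX6, and 2 of their 13 promoters held a core. Only the PRDX1 core lay wholly within the 200 bp centred on an NRF2 summit, and the matching share over all NRF2 peaks is not given here. A match of these letters is a description and does not show that NRF2 was bound to them.

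Among 24 other genes of the pathway, which comprise further peroxiredoxins, thioredoxins, glutaredoxins, sestrins, methionine sulfoxide reductases and arrestin relatives of TXNIP, 16 had an ACTL6A peak at a TSS, 23 a BRG1 peak and 10 an NRF2 peak, and 9 had all 3. Those with NRF2 were TXNL1, TXNDC9, TXNDC12, TMX1, GLRX, GLRX2, GLRX5, SESN1, ARRDC4 and MSRA. Their NRF2 ranks ran from 27.0% at ARRDC4 to 96.7% at TXNDC12, below the ranks of TXNRD1, TXN and PRDX1. SRXN1 (29.4%), PRDX3 (65.1%), TXNIP (70.5%) and PRDX6 (94.7%) lay within that range. At TXN2, the mitochondrial thioredoxin, ACTL6A and BRG1 peaks were present without NRF2, and PRDX4, the peroxiredoxin of the endoplasmic reticulum, and TXNRD3 had BRG1 alone. MSRB3, a methionine sulfoxide reductase, had no peak of the 3 antibodies at a TSS.

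At stricter thresholds fewer genes were left for NRF2 and ACTL6A. With a -log10 q of at least 5, BRG1 peaks remained at a TSS of 10 of the 10 genes (55.4% of all genes). NRF2 peaks remained at TXN, TXNRD1, SRXN1 and PRDX1 (4 genes, against 17.2% of all genes), ACTL6A peaks at TXN, TXNRD1, PRDX3 and PRDX6 (4 genes, against 23.7%), and all 3 antibodies at TXN and TXNRD1 (2 genes, against 12.1%). Among the 5000 highest peaks of each list the same genes were left for NRF2 (18.5% of all genes), ACTL6A (19.4%) and all 3 (8.27%), and BRG1 peaks remained at TXN, TXNRD1, SRXN1, PRDX3 and PRDX6 (5 genes, against 19.0%).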

How the data were processed

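CUT&Tag of SNU638 cells gave 5 peak lists on GRCh38. Reads were 150 bp pairs. The authors mapped them with BWA and called peaks with MACS2 (q-value cut-off 0.05), 1 list per library; fastp 0.23.0 and HOMER 4.11 are also named in the submitters' processing notes, and the control given to the caller is not given in the sources used here. The fold enrichment deposited for each peak was read as the observed fragments at the summit plus 1, divided by the expected fragments plus 1. It is therefore smaller than the plain ratio of observed to expected fragments, most of all where few were expected. The deposited p-values and q-values are on a −log10 scale, and the deposited score is derived from the q-value. Read totals of the libraries were not used here.

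Peaks sharing at least 1 bp overlapped. A whole number of fragments at each summit was solved from fold and p-value together, to within 0.001 log10 units (possible for 99.1% of a list or more), with exact Poisson 95% intervals. Rank was by the −log10 q. Genes and TSSs came from GENCODE release 44, sequences from GRCh38 and promoters (250 bp before to 50 bp after the start) from RefSeq. Routines were tested on simulated data.

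All 10 genes were named with every TSS peak, other peaks singly only where they ranked in the highest 10%, held an ARE core or were shared by antibodies, and neighbours only where a peak was within 1 kb of their TSS; 1 neighbour is not reported here. A few other peaks, CCDC88B, TXN2, PRDX4 and TXNRD3 were named after their values were seen. The members and lists were chosen with earlier results of these data known. Alternatives were stricter peaks, other overlaps, flanks, TSS distances and ARE forms, peaks shared with IgG left out and, chosen after seeing the data, peaks nearer another gene left out. Analyses used pysam 0.24.0, pandas 2.3.3, matplotlib 3.10.9, SciPy 1.17.1 and NumPy 2.4.6 in Python 3.11.15.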

Additional observations from a re-analysis of the deposited data

How the results depend on the processing

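Of 66 alternative values of the 11 counts reported for the 10 genes, 27 moved by more than 1.5 times, and 6 of the others belong to the IgG count of 0. With a -log10 q of at least 5, the peaks over the genes were 5 for ACTL6A, 26 for BRG1 and 5 for NRF2, genes with a TSS peak 4 for ACTL6A and 4 for NRF2, genes with all 3 antibodies 2, ACTL6A peaks overlapping BRG1 5, NRF2 peaks overlapping ACTL6A 2, and genes with an ARE core in an NRF2 peak 3. With the 5000 highest kept per list these were 5, 9, 5, 4, 4, 2, 5, 2 and 3 in the same order, with 5 genes for BRG1 at a TSS. Without flanks the peaks were 8, 25 and 4. When peaks had to share 50% of both, ACTL6A overlapped BRG1 in 6 and NRF2 overlapped ACTL6A in 1. An ARE core preceded by A or G was in an NRF2 peak at 3 genes, and a core within 200 bp centred on the summit at 1. For these ARE counts and those at the stricter thresholds, matching shares over all genes are not given here, so they have no baseline. Leaving out peaks nearer a TSS of another gene gave 26 BRG1 peaks. Both stricter thresholds keep fewer peaks by construction; the other causes were not tested. None of the genes' peaks overlapped IgG, so leaving out such peaks could not change a count. No paired analysis was possible because there were no replicates. Few fragments limit the ACTL6A values, with 5 to 13 at the highest TSS peaks of these genes.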
